A study of Mus musculus with 6 samples.

Results

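The genes of 10 transcription factors of the developing kidney were followed in DNA methylation profiles of cultured mouse mesangial cells, which hold the capillary loops of the glomerulus together and can contract. The genes were picked by name, as 4 factors of the kidney stroma (Foxd1, Tcf21, Tbx18 and Osr1) and 6 factors of the nephron lineage (Wt1, Pax2, Pax8, Lhx1, Six2 and Sall1), and they are 10 of 22367 protein-coding genes in the mm9 annotation (GENCODE vM1). The profiles came from MeDIP-seq, in which an antibody against 5-methylcytosine pulls down methylated DNA fragments that are then sequenced, and each sample was deposited as a list of peaks, places where reads piled up above the local background. A peak was given to a gene when its summit lay in the gene or in the 10 kb either side of it, and overlapping peaks of different samples (by 1 bp or more) were merged into regions. The 10 genes held 165 of 579787 peaks and 46 of 170444 regions, 13 regions at the stromal and 33 at the nephron factors.

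The 6 samples were 3 controls and 3 given TGF-β1, a growth factor that drives fibrosis in the glomerulus, at 10 ng/ml for 72 h. Both groups were primary cells at passages 3 to 6, and both were kept in medium with 25.5 mM glucose, so the controls were cultured at high glucose too. The study calls the samples of a group biological replicates, but the sources used here do not say whether they came from separate cultures or animals. The p-values below thus measure the spread between these samples, and how much of it is technical is not known. Peak calling used 9407103 to 11494356 reads in control and 12634300 to 13291419 reads in TGF-β1 samples, so that depth and treatment cannot be told apart where peaks are counted. The lowest pileup called, the number of extended reads stacked over a summit, was 8 reads in each control and 9 to 10 reads in the TGF-β1 samples, and a place with less is missing from the lists without being free of methylation. In bulk DNA, a weak signal in all cells and a strong signal in a few cells cannot be told apart. The lists hold no RNA, so the identity of the cells could not be checked by expression. Promoter peaks were seen in at least 1 sample at 1 of 6 mesangial, 2 of 4 endothelial, 2 of 4 leukocyte and 0 of 4 epithelial marker genes, and in all 6 samples at none of them. Over all protein-coding genes the shares were 13.8% and 3.13%. A CpG-rich promoter, as defined below, was present at 2 of 6 mesangial, 0 of 4 endothelial, 0 of 4 leukocyte and 2 of 4 epithelial markers. These counts are too small and the promoters too unlike to tell which cells were present.

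The stroma of the embryonic kidney gives rise to mesangial cells, pericytes and other supporting cells, while the condensed mesenchyme next to it forms the nephron. Transcription factors set up both lineages. The sets used here are not exclusive, since Tcf21 and Osr1 are also factors of cells outside the stroma, as given below. Genes of this kind usually start inside a CpG island, a stretch rich in CG dinucleotides that is mostly kept free of methylation, while methylation at the edges of an island or inside a gene is common. Methylated promoters of CpG-rich genes are generally silent, but methylation in a gene body goes along with active as well as inactive genes.

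Each of the 10 genes except Six2 held a peak in at least 5 of the 6 samples, but the peaks lay away from most gene starts. A promoter was taken as 1 kb either side of the annotated 5′ end of the gene. Promoter peaks were found at 2 of 10 genes, the stromal factors Tcf21 and Osr1, and at both of them in all 6 samples. By this definition, none of the 6 nephron factors had a promoter peak in any sample. Over all protein-coding genes, 13.8% had a promoter peak in at least 1 sample and 3.13% in all 6, and among the 6653 genes with a CpG-rich promoter (GC content of at least 50% and an observed over expected CpG ratio of at least 0.6) these shares were 8.39% and 1.74%. The promoters of Tcf21 and Osr1, with ratios of 0.519 and 0.442, were not CpG-rich by this measure, nor was that of Pax8 (0.263), while the other 7 genes had ratios of 0.652 to 0.943.

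Stretches of the mm9 reference sequence are given for promoters with and without a peak and for strong peaks outside promoters. Below, CG dinucleotides are in capitals and each stretch is written 5′ to 3′ on the strand of its gene. The first pair are the promoter peaks of Tcf21 (chr10:22539935-22540163, minus strand, the part of the peak region that lies upstream of the gene) and Osr1 (chr12:9580439-9580738, plus strand, around the highest summit of the region). They hold 6 CG in 229 bases and 9 CG in 300 bases. The Tcf21 stretch lies beside the summits of its region, which are inside the gene, and the whole region holds 17 CG in 493 bp. The stretch upstream of Six2 (chr17:86087595-86087894, minus strand) is shown because it had no peak in any sample, and it holds 29 CG in 300 bases. The other two stretches lie around the highest summits of the strongest shared peak regions of Lhx1, upstream of the island at its start (chr11:84340485-84340784, minus strand, 9 CG), and of Sall1, in coding exon 3 (chr8:91553866-91554165, minus strand, 11 CG). The Six2 promoter has the most CG of the 10 genes, and the Pax8 promoter, which had no peak either, has the fewest, 40 CG within 1 kb either side of the start against 73 at Tcf21 and 62 at Osr1.
Tcf21 promoter peak: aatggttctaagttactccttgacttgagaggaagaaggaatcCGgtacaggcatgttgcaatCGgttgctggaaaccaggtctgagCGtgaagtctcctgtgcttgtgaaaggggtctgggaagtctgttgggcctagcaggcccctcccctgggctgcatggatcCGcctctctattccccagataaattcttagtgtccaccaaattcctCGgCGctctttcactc
Osr1 promoter peak: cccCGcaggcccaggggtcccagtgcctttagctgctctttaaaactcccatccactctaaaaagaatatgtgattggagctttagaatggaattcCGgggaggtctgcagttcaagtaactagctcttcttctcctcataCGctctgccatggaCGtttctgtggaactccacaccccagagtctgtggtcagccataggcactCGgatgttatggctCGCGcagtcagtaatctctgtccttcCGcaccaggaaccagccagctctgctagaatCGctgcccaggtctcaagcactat
Six2 upstream of the start, no peak: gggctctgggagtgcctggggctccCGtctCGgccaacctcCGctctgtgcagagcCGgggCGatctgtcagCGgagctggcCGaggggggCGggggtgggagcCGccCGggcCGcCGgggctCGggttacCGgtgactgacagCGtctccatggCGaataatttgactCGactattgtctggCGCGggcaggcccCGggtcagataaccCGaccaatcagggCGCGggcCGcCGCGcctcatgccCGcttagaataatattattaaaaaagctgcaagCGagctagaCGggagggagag
Lhx1 upstream peak: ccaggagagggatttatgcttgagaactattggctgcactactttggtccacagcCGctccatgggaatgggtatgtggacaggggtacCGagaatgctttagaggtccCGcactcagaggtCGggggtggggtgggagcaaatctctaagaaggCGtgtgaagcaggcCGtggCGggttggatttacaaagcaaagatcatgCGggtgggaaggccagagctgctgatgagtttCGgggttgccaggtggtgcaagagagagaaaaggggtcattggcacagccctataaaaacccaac
Sall1 exon 3 peak: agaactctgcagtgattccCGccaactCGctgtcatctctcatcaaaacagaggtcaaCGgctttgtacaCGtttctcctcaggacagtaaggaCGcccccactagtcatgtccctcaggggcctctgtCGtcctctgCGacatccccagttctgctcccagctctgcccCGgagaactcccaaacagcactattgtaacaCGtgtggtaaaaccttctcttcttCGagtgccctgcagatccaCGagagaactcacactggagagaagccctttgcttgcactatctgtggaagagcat

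**Figure D1:**
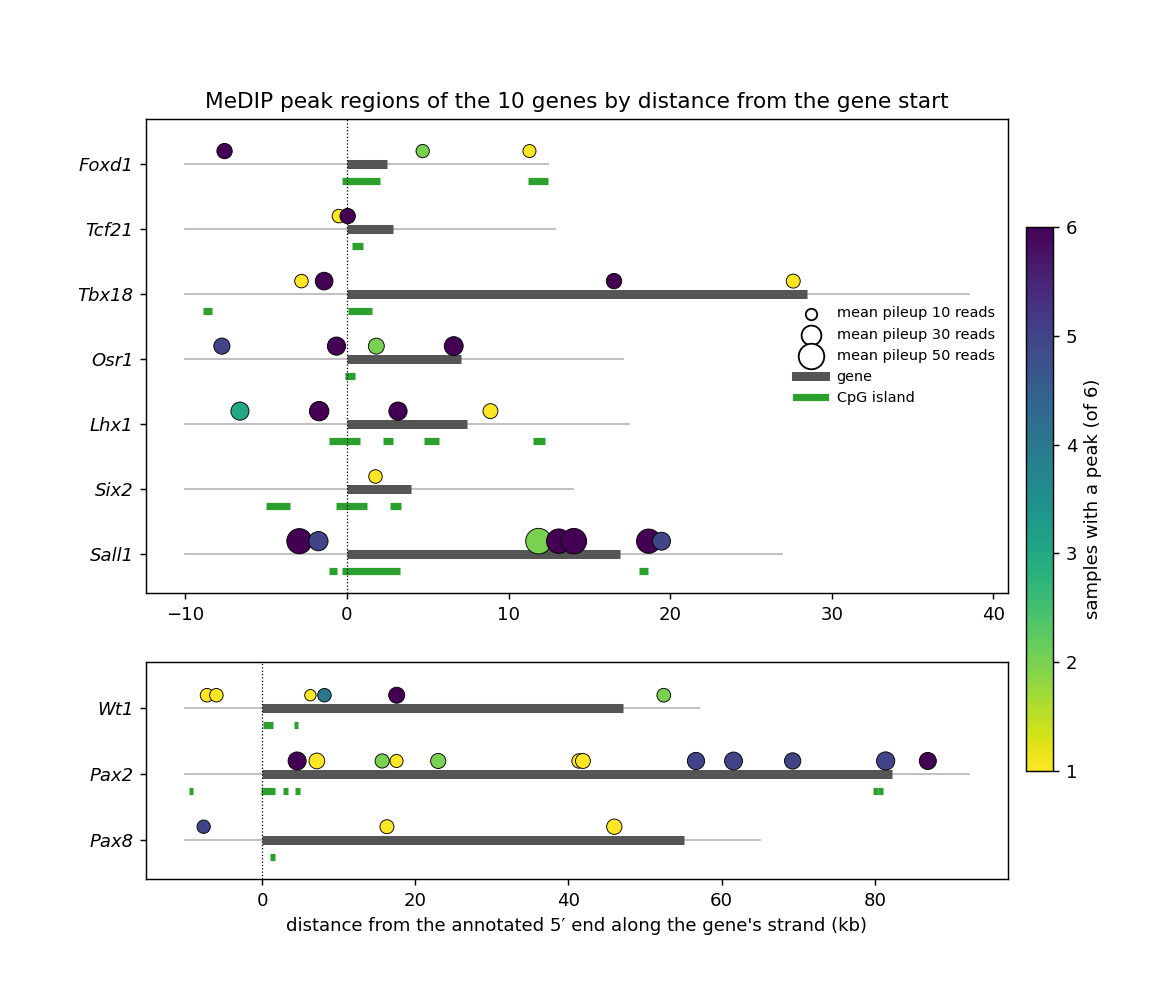
Peak regions of the 10 genes, placed by the distance of their median summit from the annotated gene start in kb (horizontal axis). Each circle is 1 of the 46 regions, its colour gives the number of samples with a peak, its area the mean pileup in reads, the dark bar is the gene, the thin line the 10 kb on either side and the green bars are CpG islands; at the dotted line, only Tcf21 has a circle, and the large circles are those of Sall1.

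Among the stromal factors, Foxd1, a forkhead factor that marks the stromal progenitors, had no peak over its own body of 2461 bp (chr13:99124200-99126660, plus strand). Its shared region lay 7578 bp upstream (chr13:99116208-99116861), with pileups of 17, 18 and 22 reads in control and 16, 15 and 20 reads in TGF-β1 samples. The values overlap as counted, and the deeper TGF-β1 samples had the lower mean, 17 ± 2.65 against 19 ± 2.65 reads (SD, n = 3 each). Of its other regions, the one 4684 bp downstream of the start was called in TGF-β1 replicates 1 and 2, and the one 11292 bp downstream, which touches a CpG island, in TGF-β1 replicate 1. Foxd1 thus had 1, 1 and 1 peaks in control and 3, 2 and 1 in TGF-β1 samples (exact two-sided permutation test, p = 0.4, where 0.1 is the smallest p that 3 against 3 samples allow).

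Tcf21, a basic helix-loop-helix factor of the kidney stroma and of podocytes, was the only one of the 10 genes with a peak across its start. The region (chr10:22539671-22540163) had its median summit in untranslated exon 1, ended 17 bp short of the island inside the gene, and held 17 CG in 493 bp. Pileups were 18, 19 and 18 reads in control and 18, 14 and 22 reads in TGF-β1 samples, with the highest and the lowest value both in the TGF-β1 group. A further region 501 bp upstream (chr10:22540229-22540604) was called in TGF-β1 replicate 3 alone, at 14 reads. The span free of summits around the Tcf21 start, 505 bp, was the shortest of the 10 genes, and peaks cover part of it.

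Tbx18, a T-box factor of the mesenchyme that surrounds the ureter, had 2 regions that were shared by all 6 samples. The stronger one lay 1416 bp upstream of the start (chr9:87627222-87628116) and had pileups of 22, 19 and 27 reads in control and 21, 29 and 26 reads in TGF-β1 samples. The other one, in intron 5, had 21, 14 and 17 against 18, 17 and 22 reads, and with 5 CG in 430 bp it was the poorest in CG of the regions shared by all samples. In both regions the groups overlapped. Of its remaining regions, the one 2818 bp upstream was called in control replicate 2 and the one in untranslated exon 8 in TGF-β1 replicate 1.

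Osr1, an odd-skipped zinc finger factor that marks the intermediate mesoderm before the kidney forms, had the highest density of peaks among the stromal factors, 11.7 per 100 kb. The promoter region (chr12:9580390-9580841), centred 652 bp upstream of the start and 269 bp from the island that covers it, had pileups of 23, 23 and 26 reads in control and 29, 26 and 25 reads in TGF-β1 samples. A region in untranslated exon 3 was the strongest of the gene (chr12:9587688-9588012), with 25, 22 and 32 against 26, 25 and 34 reads. A region 7743 bp upstream was called in all samples but control replicate 1, at 16 to 23 reads, and one in intron 1 in control replicate 2 and TGF-β1 replicate 3. The promoter peak stood in every sample between 23 and 29 reads, and the groups overlapped.

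Among the nephron factors, Wt1, a zinc finger factor of the early kidney mesenchyme and of podocytes, has a length of 47088 bp. Its density, 3.73 peaks per 100 kb, lay at the 37.9th percentile of protein-coding genes. Only the region in intron 4 (chr2:104983765-104984573), 17582 bp from the start, was shared by all samples, with 13, 19 and 20 reads in control and 21, 23 and 22 reads in TGF-β1 samples. The TGF-β1 values were all above the control values as counted, but they did not stay so once each sample was centred on its own median over the shared regions, which was 23, 23 and 27 reads in control and 28, 27 and 30 reads in TGF-β1 samples. The other 5 regions were called in 1 to 4 samples, and 2 of them, upstream of the start, lie within AI314831, a long non-coding RNA gene.

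Pax2, a paired-box factor needed for the nephric duct and the nephron, had the most peaks, 5, 6 and 8 in control and 8, 7 and 6 in TGF-β1 samples (exact two-sided permutation test, p = 0.8), over a window of 102 kb. At 6.52 peaks per 100 kb its density was close to the median of all protein-coding genes, 5.24. Of its 12 regions, 2 were shared by all samples. The region in exon 1 of the alternative transcript Pax2-004 (chr19:44834771-44835340) was the only one of the 46 with a summit in a CpG island in all 6 samples, with 13, 22 and 34 reads in control and 26, 33 and 22 reads in TGF-β1 samples. The spread within the control group was wider there than the distance between the groups. The other shared region lay downstream of the gene, 86906 bp from the start, and had 18, 14 and 29 against 22, 27 and 24 reads. A cluster of 4 regions between 56645 and 81407 bp from the start, in introns 5, 6 and 7 and untranslated exon 10, had peaks in 5 samples each.

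Pax8, a close relative of Pax2 that acts with it in the same lineage, was sparsely covered. Its region in the most samples lay 7620 bp upstream of the start (chr2:24338460-24339048), within the overlapping transcript Gm13415, and had 11, 11 and 12 reads in control, 13 and 21 reads in TGF-β1 replicates 1 and 3 and no peak in TGF-β1 replicate 2. The control values are only a few reads above the lowest pileup called, so the missing peak does not show a loss. The gene held 2 more regions, in intron 2 in control replicate 1 and in coding exon 10 in TGF-β1 replicate 1. Its density, 1.55 peaks per 100 kb, lay at the 22.9th percentile of protein-coding genes.

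Lhx1, a LIM homeobox factor of the nephric duct and the early nephron, had shared peaks on both sides of the island at its start. The upstream region (chr11:84340420-84341051), 1723 bp from the start and within the long non-coding RNA gene 1500016L03Rik, lay 376 bp from that island and had 18, 22 and 35 reads in control and 36, 26 and 37 reads in TGF-β1 samples. The region in coding exon 2 (chr11:84335137-84335989) had 17, 23 and 29 against 25, 29 and 30 reads. In both regions control replicate 3 lay within the range of the TGF-β1 samples.

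Six2, a homeobox factor that keeps nephron progenitors dividing, was nearly without peaks. A single peak of 14 reads, in intron 1 (chr17:86085712-86086004), was called in control replicate 1, and the other 5 samples had none in a window of 24.0 kb. Its density, 0.695 peaks per 100 kb, lay at the 17.5th percentile of protein-coding genes. Its promoter had the most CG of the 10, 195 within 1 kb either side of the start, and its span free of summits around the start was the longest, 29137 bp.

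Sall1, a zinc finger factor that the kidney mesenchyme needs to draw in the ureteric bud, was at the other end. Its 16.3 peaks per 100 kb placed it at the 98.4th percentile of protein-coding genes, and 4 of its 7 regions were shared by all samples. The region in coding exon 3 shown above (chr8:91553805-91554250) had 33, 50 and 61 reads in control and 43, 50 and 61 reads in TGF-β1 samples, so the groups covered nearly the same range. Another region in the same exon, 13105 bp from the start, had 37, 42 and 51 against 47, 47 and 51 reads. The region 2948 bp upstream (chr8:91570769-91571512) had 38, 40 and 50 against 56, 44 and 62 reads, and the one 18669 bp from the start, downstream of the gene and touching a CpG island, 38, 47 and 53 against 45, 40 and 48 reads. The mean pileups of these 4 regions, 45.2 to 49.7 reads, lay at the 93.7th to 96.0th percentile of the regions shared by all samples. Over the 7 Sall1 regions the median of the mean pileups was 45.8 reads, against 18.0 reads over the 39 regions of the other 9 genes.

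Pileups were high on chromosome 8 as a whole. It had the highest median pileup of the chromosomes, 1.14 to 1.19 times the median of the sample, and among its own shared regions the 4 Sall1 regions lay at the 86.8th to 91.5th percentile. The fold enrichment of the Sall1 regions over their local background was not high, with a median of 4.25 against 5.67 for the other 9 genes and 5.84 for all regions. The local background is read from the 10 kb around a peak in the same sample, and neighbouring Sall1 peaks fall within that distance of each other. The part of the chromosome and of the local background in the Sall1 values was not tested.

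**Figure D2:**
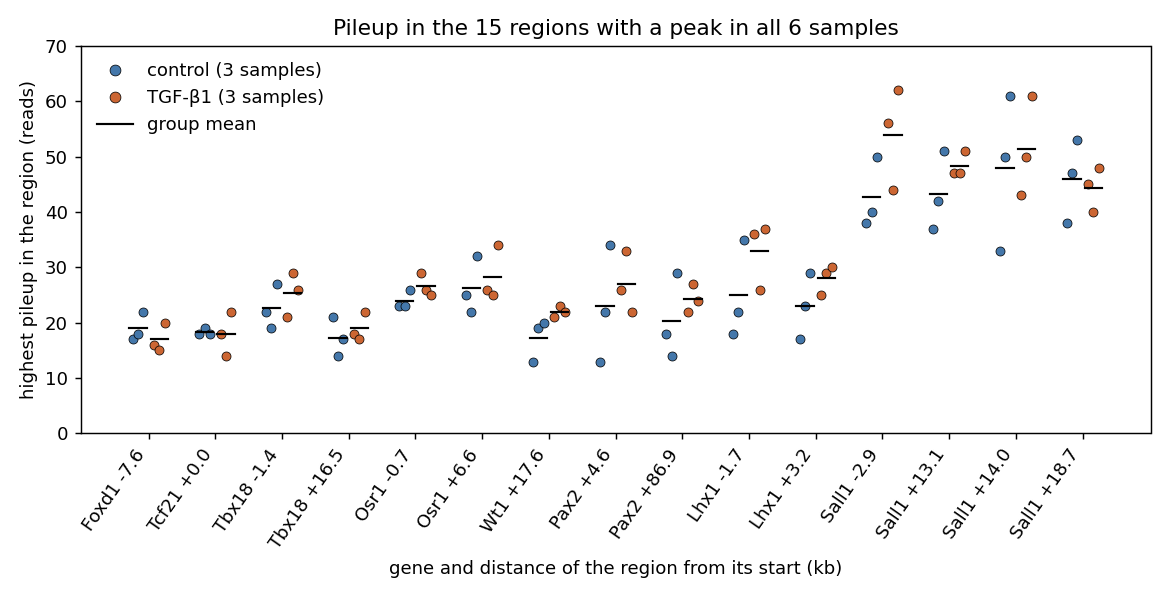
Pileup in reads (vertical axis) in each sample for the 15 regions called in each of the 6 samples, named by gene and distance from the gene start in kb. Points are samples (blue control, orange TGF-β1, 3 each) and bars are group means; the 4 Sall1 regions stand between 33 and 62 reads, the other 11 regions between 13 and 37 reads, and the ranges of the groups overlap in each region but that of Wt1.

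To ask whether TGF-β1 changed the pileup at these genes, the 15 regions that had peaks in each of the 6 samples were compared in a fit over all 41744 such regions of the genome (limma on log2 pileup, each sample centred on its median, Benjamini-Hochberg adjustment). None of the 15 regions passed an adjusted p of 0.05, and the adjusted p was 0.999 for each of them. At an unadjusted p under 0.05 there were also 0 of 15, where the background over all shared regions was 4.18% (1744 regions), and no region of the genome passed an adjusted p of 0.05. Log2 fold changes of TGF-β1 over control ran from -0.39 to 0.22, and their 95% intervals reached from -0.81 at the lowest, for Foxd1, to 0.66 at the highest, for Lhx1. A change by a factor of 2 in either direction (a log2 fold change of 1) lay outside the interval of each of the 15 regions in this fit. The fit held only regions called in every sample, so a weak region with such a fall could drop below the lowest pileup called and be missing from it. Where regions with peaks in at least 3 samples were tested instead, uncalled samples were given their lowest pileup called. The intervals of the Foxd1 region (to -1.12) and the Tcf21 promoter region (to -1.04) then included a fall of that size. Both regions had peaks in all 6 samples, so none of their own values were filled in. Their log2 fold changes were -0.41 and -0.30, and their SE rose from 0.21 each to 0.32 and 0.33 (limma). The other regions of these genes, with peaks in fewer than 6 samples, could not enter this test.

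The largest difference in size was in the region upstream of Foxd1, with a log2 fold change of -0.39 ± 0.21 (SE, limma), followed by the Tcf21 promoter region with -0.27 ± 0.21 (SE, limma) and the region downstream of Sall1 with -0.27 ± 0.17 (SE, limma). The Foxd1 and Sall1 regions had values that did not overlap between the groups after centring, which made 2 of 15 regions lower in TGF-β1 samples, where 4.96% of all shared regions were, and 0 of 15 higher, where 4.33% were. By unadjusted p (limma), Foxd1 stood at 0.074, Tcf21 at 0.21 and Sall1 at 0.12. The stromal regions all had log2 fold changes below 0, 6 of 6 with a median of -0.10, and of the nephron regions 6 of 9 were above 0, with a median of 0.10, while over all shared regions 21223 of 41744 were below 0. No stromal region passed the test, and without control replicate 1, TGF-β1 replicate 1 or TGF-β1 replicate 3 the count became 5 of 6. Without control replicate 1 the nephron regions turned, with 3 of 9 above 0 and a median of -0.07, and without TGF-β1 replicate 2 there were 4 of 9 and a median of -0.01.

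Presence of a peak did not separate the groups in any region. Of the 46 regions, 0 had a peak in all 3 samples of one group and in none of the other, where 0.948% of all regions had this in favour of TGF-β1 and 0.233% in favour of control. Regions shared by all 6 samples made up 32.6% of the 46 against 24.5% of all regions, and regions seen in 1 sample 32.6% against 27.3%. Peaks in control samples only were found in 9 of the 46 regions (19.6%, against 14.1% of all regions) and in TGF-β1 samples only in 7 (15.2%, against 20.2%).

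In number of peaks the groups overlapped at each of the 10 genes, where 3.74% of all protein-coding genes had groups that did not overlap. The exact permutation test gave p = 0.4 for Foxd1, 0.6 for Sall1, 0.8 for Pax2 and 1 for the other 7 genes. Over the 10 genes together there were 23, 27 and 29 peaks in control and 31, 27 and 28 in TGF-β1 samples, a difference in means of 2.33 peaks, against a control SD of 3.06. It was 0.667 without control replicate 1 and 3.67 without control replicate 3, and 4.33 when a -log10 q of at least 5 was asked of each peak. Per 1000000 reads the difference became -0.316 and per 1000 peaks of the sample -0.0102, so its direction followed how the depth was taken into account.

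**Figure D3:**
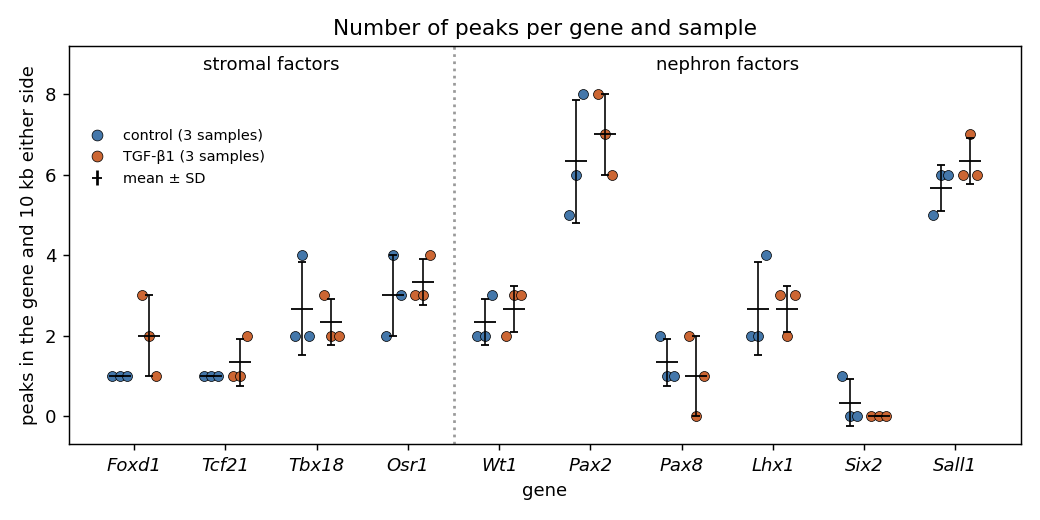
Number of peaks in each gene and the 10 kb either side of it (vertical axis) in each of the 6 samples, stromal factors left of the dotted line and nephron factors right of it. Points are samples (blue control, orange TGF-β1) and bars are the mean ± SD of 3 samples; Pax2 and Sall1 have 5 to 8 peaks per sample, Six2 has 1 peak in 1 sample, and the groups overlap at each gene.

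The stromal and the nephron factors were not clearly apart in how densely they were covered. Per 100 kb of window, the stromal genes had 6.90 ± 1.35 and the nephron genes 5.76 ± 0.61 peaks (SD over 6 samples). The stromal genes were higher in 4 of 6 samples, by a mean of 1.14 ± 1.46 (SD over 6 samples), and all protein-coding genes together had 5.20 ± 0.52. The direction changed with single genes and with the unit of the count, while the window changed only the size. Without Osr1 the difference was -0.251 and without Pax8 -0.0893, and counted per gene, with the longer nephron genes at their full weight, it was -1.11. The stromal genes were higher in 6 of 6 samples without Sall1 (2.45), without Tbx18 (2.30), with peaks of at least 5-fold enrichment (1.57) and with 2 kb either side of the gene (4.21). The density varied more within each set, from 5.11 at Tcf21 to 11.7 at Osr1 and from 0.695 at Six2 to 16.3 at Sall1, than between the sets. Regions shared by all 6 samples were 6 of 13 at the stromal and 9 of 33 at the nephron factors.

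The sets differed most at the gene start. In the promoters of the stromal factors there were 27.1 ± 5.10 peaks per 100 kb (SD over 6 samples), against 6.79 ± 1.49 in their gene bodies and 4.82 ± 1.59 in their flanks. The nephron promoters had none, against 5.48 ± 0.73 in the bodies and 6.87 ± 0.86 in the flanks. Genes with a CpG-rich promoter had the same order as the nephron factors, 2.28 ± 0.24 in promoters, 6.04 ± 0.58 in bodies and 6.67 ± 0.66 in flanks. The stromal value comes from 2 peaks per sample, and 3 in TGF-β1 replicate 3, all at Tcf21 and Osr1, and no p is given because genes are not replicates. Foxd1 and Tbx18, the stromal factors with a CpG-rich promoter, had no promoter peak, like the nephron factors. The absence of nephron promoter peaks holds for 1 kb either side of a single annotated start per gene. A Pax2 region called in all 6 samples lay in exon 1 of the alternative transcript Pax2-004. With 2 kb either side, regions of Lhx1, Sall1 and Six2 fell in promoters too.

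**Figure D4:**
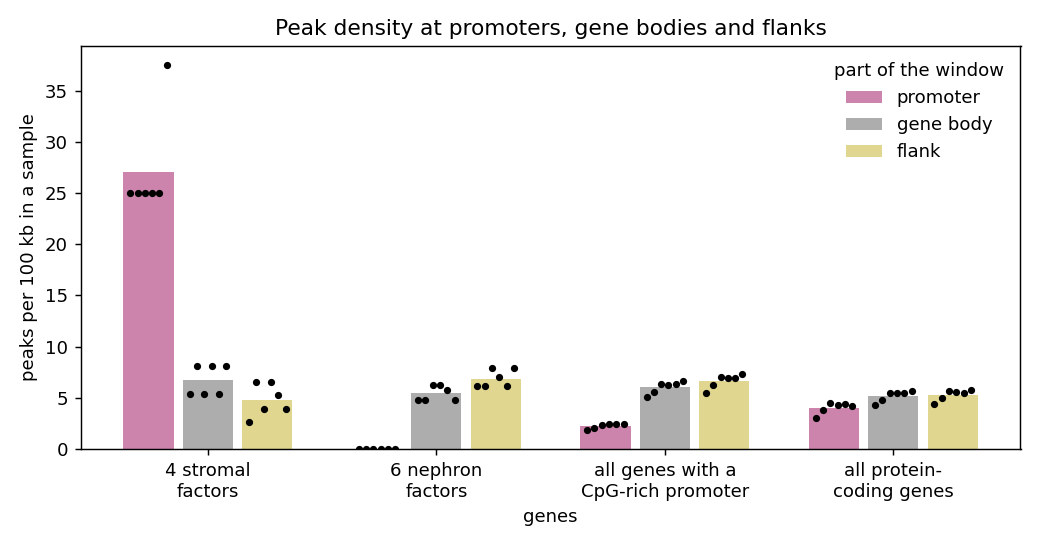
Peaks per 100 kb (vertical axis) in promoters (1 kb either side of the gene start), the rest of the gene and the rest of the 10 kb flanks, for the stromal factors, the nephron factors, all genes with a CpG-rich promoter and all protein-coding genes. Bars are means and points the 6 samples; the stromal promoters stand at 27.1 and the nephron promoters at 0, while the gene bodies and flanks of the 4 sets lie between 4.82 and 6.87.

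Just outside the promoters, several of the genes had peaks in all or most samples. Tbx18, Lhx1 and Sall1 each had a region with its summit between 1 and 2 kb upstream of the start, at 1416, 1723 and 1768 bp. This kilobase held 0.30 peaks per gene and sample over the 10 genes, against 0.0743 over all genes with a CpG-rich promoter, and the first kilobase after the start 0.10 against 0.0116, all of it from Tcf21. Between 8 and 7 kb upstream, Foxd1, Osr1 and Pax8 had regions in 5 or 6 samples, at 7578, 7743 and 7620 bp. Wt1 had one at 7180 bp, called in control replicate 1 alone. Together they came to 0.283 peaks per gene and sample, against 0.0643 over all genes with a CpG-rich promoter. These distances were singled out after the values had been seen. With a promoter of 2 kb either side, the excess of promoters over flanks, 4.78 ± 2.04 peaks per 100 kb over the 10 genes (SD over 6 samples), became 9.44, since these upstream regions of Tbx18, Lhx1 and Sall1 and the intron 1 regions of Osr1 and Six2 then counted as promoter.

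The windows of the 10 genes hold 25 CpG islands, found in the reference as stretches of at least 500 bp with a GC content of at least 55% and an observed over expected CpG ratio of at least 0.65. A summit fell in 2 of them, the one inside Pax2 in all 6 samples and the one downstream of Foxd1 in 1. The 6 islands that cover the start of a gene, at Foxd1, Osr1, Pax2, Lhx1, Six2 and Sall1, had no summit in any sample. The islands took up 5.98% of the windows and held 4.24% of the summits, or 4.30 ± 1.51 peaks per 100 kb (SD over 6 samples), and the zones within 2 kb of an island took up 15.9% and held 38.2%, or 14.6 ± 1.70 per 100 kb, against 4.47 ± 0.65 elsewhere. By region, 16 of 46 lay within 2 kb of an island, among them 3 that touched one, and of the 15 regions shared by all samples 8 did. Around the gene start the span without any summit had a median of 12922 bp over the 10 genes, against 14175 bp over genes with a CpG-rich promoter and 17284 bp over all protein-coding genes. Against genes with a CpG-rich promoter, this order depended on how peaks were called. It turned when regions had to be called in at least 2 samples (22340 bp against 19170 bp) and at a fold enrichment of at least 5 (16910 bp against 15780 bp). At a -log10 q of at least 5 it held (13820 bp against 14620 bp). By gene the span ranged from 505 bp at Tcf21, 2443 bp at Osr1 and 4780 bp at Lhx1 to 23837 bp at Pax8 and 29137 bp at Six2.

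The regions of the 10 genes were somewhat richer in CG than other regions. The median was 2.91 CG per 100 bp over the 46 regions and 2.37 over all regions, and over the regions shared by all samples it was 3.45 for the 15 regions of these genes and 2.61 for the genome. Sall1 (3.77) was above the other 9 genes together (2.73). The 15 regions seen in 1 sample had low mean pileups, from 10 to 19 reads. Their median length was 302 bp against 570 bp for the 15 shared regions, which are longer by construction because each joins the peaks of several samples.

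Other factors of kidney development were a list of 30 genes, of which 29 were in the annotation and 21 had a CpG-rich promoter. A promoter peak was present in at least 1 sample at 2 of 29 genes (6.90%). The share was 13.8% over all protein-coding genes and 8.39% over those with a CpG-rich promoter. In all 6 samples, 0 of these factors had such a peak, against 3.13% and 1.74%. Of their 334 regions, 86 had peaks in all samples, and of these 0 passed an adjusted p of 0.05 (limma, Benjamini-Hochberg), while 2 higher (background 1.96%) and 4 lower in TGF-β1 samples (background 2.22%) had an unadjusted p under 0.05. Their median log2 fold change was -0.03. By number of peaks, 2 of the 29 genes were higher without overlap in TGF-β1 samples, where 3.44% of all protein-coding genes were, and 0 lower, where 0.295% were.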

How the data were processed

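DNA methylation was measured by MeDIP-seq in 3 control and 3 TGF-β1 samples, grouped by the sample labels. The study's methods and the headers say that the authors mapped reads to mm9 with BWA (version not given in the sources used here), kept uniquely mapped reads, and called peaks in each sample separately with MACS2 2.1.0.20150731 at a q cutoff of 0.01, without an input library. Pileup, as deposited, is a signal in reads with no correction for depth. The deposited fold enrichment is a ratio to the local background, and the authors gave p- and q-values as -log10. The tools and the build are those of the submitters' processing notes.

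Positions were read as deposited, counted from 1. The genome and annotation were NCBIM37, the assembly of mm9, and GENCODE vM1. Of 33 chromosomes in the peak lists, 22 were in this reference, and no peak ran past the end of any of these. The 3011 peaks on the others could not be checked in this way. Regions were joined at an overlap of 1 bp and checked against bedtools 2.31.1. Log2 of the highest pileup per region was tested with limma 3.58.1 in R 4.3.3 (lmFit, eBayes with a trend), after a check on simulated data, and the rest was computed in Python 3.11.15. Numbers of peaks were compared by exact two-sided permutation over the 20 assignments of 3 and 3 samples. The precision of a pileup is limited by its number of reads, and p-values cover the spread between samples.

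The genes and lists were chosen with earlier results of these data known. Named singly were all 10 genes, for each the region with the highest mean pileup among those in the most samples, and every region with an unadjusted p under 0.05, a promoter summit, or peaks in every sample of a single group; further regions of the genes were described after their values had been seen. The lists of other kidney developmental factors and of mesangial, endothelial, leukocyte and epithelial markers were only counted. Alternatives were other peak thresholds, windows, promoter sizes, gene starts, joining, scaling by reads, fold enrichment in place of pileup, peaks in at least 3 samples, leaving out each sample or gene, and the replicate number as a block. Same-numbered samples deviated together with r from -0.130 to 0.0432, so the numbers were not taken to pair the samples.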

Additional observations from a re-analysis of the deposited data

How the results depend on the processing

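Under each alternative tried, 0 of the regions of the 10 genes passed an adjusted p of 0.05 (limma). At an unadjusted p under 0.05 there were 0 as reported, 2 when samples were scaled by reads, 1 with fold enrichment in place of pileup, 1 with peaks of a fold enrichment of at least 5, and 0 to 1 without one sample, and these were the regions upstream of Foxd1 and downstream of Sall1. Over the whole genome, fold enrichment in place of pileup put 1 region past an adjusted p of 0.05. The median log2 fold change of the 10 genes, -0.060 as reported, ran from -0.072 to 0.017 with a sample left out. Over regions with peaks in at least 3 samples, with uncalled samples given their lowest pileup called, it was 0.074 (all such regions: 0.024). With the replicate number as a block it was -0.060, with 0 regions past an adjusted p of 0.05, and the block changed no call.

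The Wt1 region turned to -0.059 with fold enrichment. Without one sample, log2 fold changes ran from -0.010 to 0.26 at the Wt1 region, from -0.22 to 0.36 at the Pax2 region in the island, from -0.20 to 0.062 at the Tbx18 upstream region, from -0.14 to 0.016 at the Osr1 promoter region and from -0.30 to 0.023 at the Sall1 exon region.

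The difference in peaks over the 10 genes, 2.33, ran from 0.667 to 3.67 without one sample and was 4.33 at a -log10 q of at least 5, -0.0102 per 1000 peaks and -0.316 per 1000000 reads. For single genes the difference turned per 1000 peaks at Osr1 (-0.00046), Pax2 (-0.000705) and Sall1 (-0.000628), per 1000000 reads at Osr1 (-0.0354), Wt1 (-0.0158), Pax2 (-0.0618) and Sall1 (-0.0561), at a fold enrichment of at least 5 at Tcf21 (-0.333), Osr1 (-0.333), Pax8 (0.333) and Sall1 (-1), and at a -log10 q of at least 5 at Tbx18 (0.333). Without one sample it ran from -0.167 to 0.833 at Osr1, from -0.667 to 0.333 at Tbx18 and from -0.833 to 0.167 at Pax8.

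Stromal minus nephron factors, 1.14 peaks per 100 kb, was 4.21 with 2 kb either side, -1.11 counted per gene, -0.251 without Osr1 and -0.0893 without Pax8. Promoter minus flank, 4.78, was 9.44 with 2 kb either side and 8.54 with the 5′ end of every coding transcript. The median span free of summits, 12920 bp (14175 bp over genes with a CpG-rich promoter), was 22340 bp for regions called in at least 2 samples (19170 bp), 16910 bp at a fold enrichment of at least 5 (15780 bp) and 15740 bp without TGF-β1 replicate 3 (15000 bp), so that under these settings it was longer than in the comparison genes. At a -log10 q of at least 5 it stayed shorter, 13820 bp (14620 bp). That fold enrichment left 6 of 37 regions with a peak in all 6 samples. Beyond the settings named here, the cause of these shifts was not tested. Depth limits the counts, since no place under 8 to 10 reads was called.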
